A study of Mus musculus with 9 samples.

Results

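Cultured mouse mast cells that had been given IgE for 18 h, without antigen, were compared with cells that had been given none, over 10630 of the 23951 gene symbols in the deposited table. The genes are those with at least 1 FPKM (fragments per kilobase of transcript and per mapped reads of the library, a level scaled for gene length and library size) in at least 3 of the 6 libraries. Eef1a1 and Cdk8, a translation elongation factor and a Mediator kinase, were left out because both are listed at 0 in all 3 IgE libraries. The cells were bone marrow-derived mast cells of wild type C57BL/6 mice, grown for 4 to 6 weeks in 10 ng/ml interleukin-3 (IL-3) and 10 ng/ml stem cell factor (SCF), and by the labels over 95% of them carried the IgE receptor and CD117, the SCF receptor Kit. The untreated group has 3 libraries, and the IgE group has 3 libraries of cells that received 0.5 µg/ml of IgE directed against the hapten DNP. The study also holds 3 libraries of cells that, after the same IgE, met DNP-coupled albumin at 50 ng/ml for 2 h; these did not enter the comparison. No vehicle for the untreated cells, no genotype difference between groups and no separate animals or cultures for the replicates are given in the labels, so the p-values measure the spread between these libraries, which may be technical.

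Mast cells carry FcεRI, a high-affinity receptor of an alpha chain that binds IgE, a signal-amplifying beta chain and a pair of gamma chains that recruit the kinase Syk. Antigen that cross-links receptor-bound IgE triggers release of histamine and proteases from granules and the synthesis of lipid mediators and cytokines. Binding of IgE by itself is called sensitisation; it stabilises the receptor at the cell surface, and some IgE preparations are known to send a weaker signal without antigen. The growth and survival of these cells in culture depend on IL-3, which acts through the JAK-STAT5 route, and on SCF, which acts through Kit.

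The steps between low FPKM values put the depth at 29.75 to 33.25 M reads for untreated and 31.7 to 39.3 M for IgE libraries, and each library listed 10492 to 10645 genes at 1 FPKM or more. Counting error in the shallowest library amounts to 13.0% (coefficient of variation) for a 2 kb transcript at 1 FPKM, and to 4.1% at 10 FPKM. IgE replicate 3 stood farthest from the other libraries of its group, with an SD of its log2 differences of 0.219 against 0.151 to 0.205 in the other 5 libraries. Mast cell identity was checked on 17 markers. All 17 were in the table, 15 were tested, and Cpa3 (carboxypeptidase A3) and Cma1 (chymase) are listed at 0 in all 6 libraries. The summed level of the list was 21163 to 22347 FPKM in untreated and 20437 to 22139 FPKM in IgE libraries. Cd3e and Cd3g of T cells, Ms4a1 and Pax5 of B cells and Slc4a1 of red cells are listed at 0 in all 6 libraries, and the 11 dendritic cell markers summed to at most 1.04 FPKM. Other markers of these cells were present. Untreated and IgE means were 5.29 and 3.38 FPKM for Eomes of T and NK cells. They were 3.70 and 2.51 FPKM for Blnk of B cells, and 14.96 and 21.1 FPKM for Hbb-bt of red cells. Whether a listed 0, such as that of Cpa3, is a failed estimate is not known.

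Many transcripts differed by small amounts between the IgE and the untreated libraries. Values are given for replicates 1, 2 and 3 of each group (n = 3), and SE is that of the fitted log2 difference. Of the 10630 genes, 1432 (13.5%) were called higher and 1227 (11.5%) lower, 25% in all, by limma on log2(FPKM + 1) at a Benjamini-Hochberg adjusted p under 0.05. The median log2 difference was 0.30 among the genes called higher, -0.27 among those called lower and -0.008 over all tested genes. By the ratio of mean FPKM, 201 rises and 127 falls reached 1.5-fold, and 10 rises and 16 falls reached 2-fold. All 3 IgE values lay above all 3 untreated values in 1429 of the rises, and below them in 1221 of the falls. The total depended on single libraries: 1480 genes were called without untreated replicate 1, 1434 without untreated replicate 3, 1601 without IgE replicate 2 and 4093 without IgE replicate 3. Of the genes called without IgE replicate 3, 2604 were among the 2659, in the same direction.

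The filter itself shaped a few calls. In all 6 libraries 10285 of the tested genes reached 1 FPKM, and 1416 of these were called higher and 1162 lower. Another 11 genes reached 1 FPKM in the 3 IgE libraries alone, with 8 called higher, and 47 in the 3 untreated libraries alone, with 39 called lower; having passed through the group in which they are high, these had to differ. Hlx, a homeobox factor, stood just inside the limit with a third-highest value of 1.00011 FPKM, and Dbhos just outside it with 0.999506 FPKM.

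**Figure D1:**
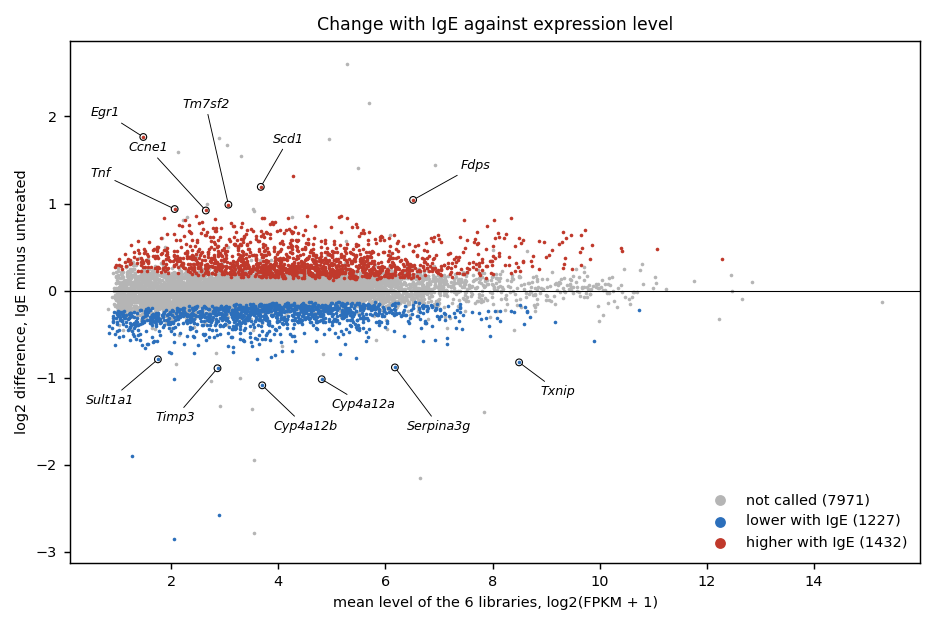
Log2 difference between IgE and untreated libraries (vertical) against the mean level of the 6 libraries as log2(FPKM + 1) (horizontal), 1 point per tested gene, red for the 1432 genes called higher, blue for the 1227 called lower and grey for the rest, with the 6 leading rises and 6 leading falls circled. Calls in both directions fill a narrow band close to the line at 0 at all levels of expression, and only a few protein-coding genes, Egr1 and Scd1 among the rises, stand clear of it; of the 20 points with a difference above 1.2 in size, 17 are short RNAs.

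Among the higher genes was Egr1, a transcription factor induced by growth factors through the ERK kinases. Its level was 0.371, 0.171 and 0.257 FPKM in the untreated libraries and 2.85, 3.51 and 3.56 FPKM in the IgE libraries, with a log2 difference of 1.76. Egr1 reached 1 FPKM in the IgE libraries alone, so it is one of the genes that had to differ, and its rank and size are a description without a test. Tnf, the inflammatory cytokine, went from 1.67, 1.97 and 1.97 to 4.37, 4.87 and 4.23 FPKM. Tnf differed by 0.94 on the log2 scale (SE 0.073, limma adjusted p = 0.000328). Etv5, an ETS factor of the same kinase route, went from 1.64, 1.65 and 1.47 to 3.38, 3.25 and 4.32 FPKM (log2 difference 0.84, SE 0.092, limma adjusted p = 0.000902), with IgE replicate 3 the highest. These transcripts were low in absolute terms, and their log2 differences on the log2(FPKM + 1) scale are smaller than the plain ratios of 12.4, 2.402 and 2.298. Txnip, an arrestin-like protein that limits glucose uptake and binds thioredoxin, was among the leading falls, with 468, 437 and 476 FPKM untreated and 264, 263 and 251 FPKM with IgE. Txnip differed by -0.83 on the log2 scale (SE 0.055, limma adjusted p = 0.000204). Timp3, an inhibitor of matrix metalloproteinases, fell from 8.17, 9.39 and 7.82 to 3.78, 3.97 and 4.53 FPKM. Timp3 differed by -0.89 on the log2 scale (SE 0.081, limma adjusted p = 0.000522). The panels of FPKM by library show these genes beside genes of the groups described next.

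**Figure D2:**
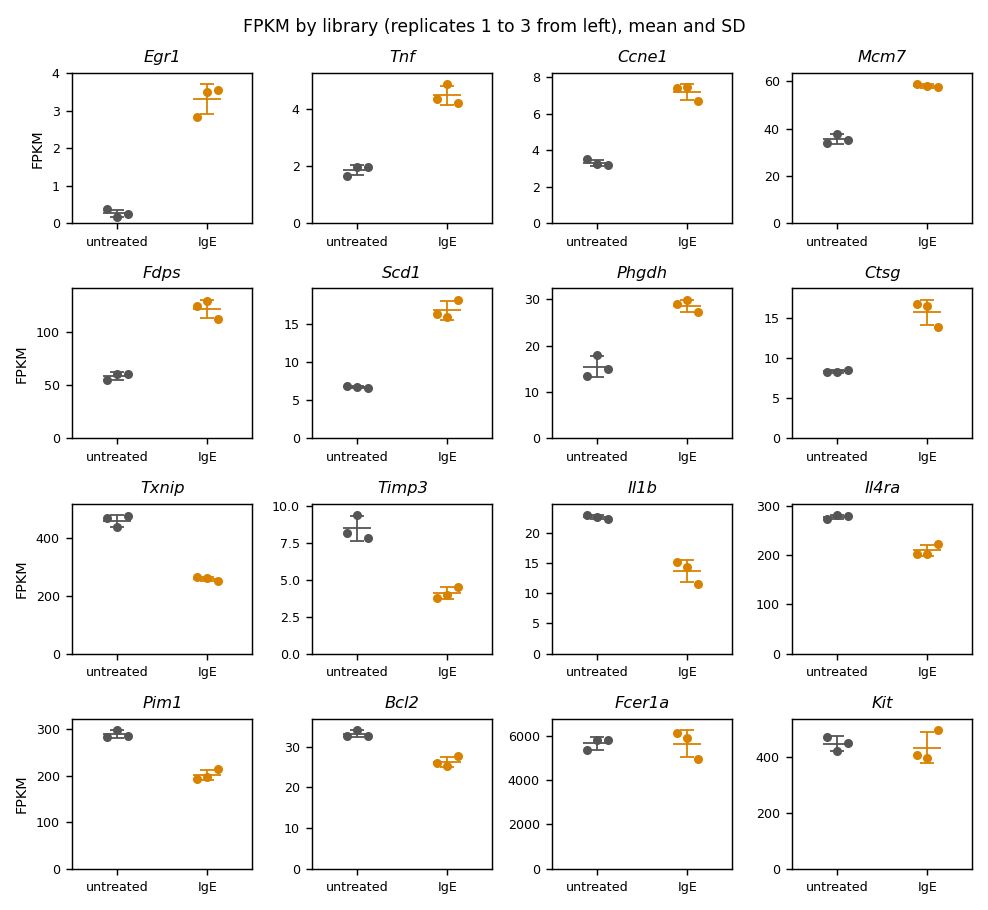
FPKM (vertical, from 0) of 16 genes in the 3 untreated libraries (grey) and the 3 IgE libraries (orange), replicates 1 to 3 from left to right, with the mean and SD of each group. The 2 groups do not overlap for any gene of the first 3 rows or for Pim1 and Bcl2, while Fcer1a and Kit, in the last row, overlap and were not called.

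Genes of cell division moved up as a body. DNA replication begins with licensing, in which the MCM helicase is loaded onto origins in G1. Cyclin E with CDK2 then releases E2F factors from the retinoblastoma proteins, and the same E2F factors drive the genes for replication enzymes. Of the 25 origin licensing and helicase genes, 24 rose and 0 fell, and the median log2 difference of the list was 0.57; all genes tested had a median of -0.008 and 13.5% called higher. Mcm5, a helicase subunit, had 28.9, 33.9 and 31.2 FPKM untreated and 52.8, 57.3 and 52.03 FPKM with IgE. Mcm5 differed by 0.77 on the log2 scale (SE 0.066, limma adjusted p = 0.000447). Mcm7 went from 33.9, 37.7 and 35.2 to 58.7, 57.9 and 57.4 FPKM. Mcm7 differed by 0.69 on the log2 scale (SE 0.049, limma adjusted p = 0.000293). Cdc45, which activates the helicase, rose from 11.4, 11.9 and 11.3 to 19.3, 20.6 and 17.98 FPKM. Cdc45 differed by 0.69 on the log2 scale (SE 0.058, limma adjusted p = 0.000408). In these genes every IgE library exceeded every untreated one, and untreated replicate 2 was the highest of its group.

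Among the 27 genes of the replication fork 24 rose and 0 fell, with a list median of 0.54. Lig1, the ligase that joins Okazaki fragments, was at 18.3, 18.3 and 18.4 FPKM and then 32.6, 30.5 and 30.9 FPKM. Lig1 differed by 0.74 on the log2 scale (SE 0.044, limma adjusted p = 0.000116). Uhrf1, which carries DNA methylation through replication, rose from 26.7, 26.7 and 27.7 to 48.6, 48.4 and 50.5 FPKM (log2 difference 0.84, SE 0.042, limma adjusted p = 7.62e-05), and Pole, a leading strand polymerase, by 0.70. Deoxynucleotide and nucleotide synthesis had 19 rises in 23 genes, 0 falls and a median of 0.39, with Rrm2 and Rrm1, the ribonucleotide reductase subunits, higher by 0.85 and 0.59, and the salvage kinases Tk1 and Dck by 0.66 and 0.59. The untreated values of Rrm2 were 22.8, 26.5 and 24.97 FPKM and its IgE values 47.01, 44.6 and 44.8 FPKM, well apart. Repair genes that act in S phase rose in 18 of 25 cases and fell in 0 (median 0.46), with Chek1, the replication checkpoint kinase, higher by 0.78, Ung, which removes uracil from DNA, by 0.74 and Brca1, of recombination repair, by 0.68.

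The G1 genes were less uniform. Of 26, 17 rose and 2 fell (median 0.35). Ccne1, cyclin E1, was at 3.51, 3.24 and 3.22 FPKM untreated and 7.403, 7.47 and 6.69 FPKM with IgE (log2 difference 0.92, SE 0.061, limma adjusted p = 0.000204), and Mybl2, a late G1 factor that later acts with the mitotic program, rose from 2.55, 3.14 and 3.05 to 6.12, 5.87 and 6.24 FPKM. Mybl2 differed by 0.86 on the log2 scale (SE 0.071, limma adjusted p = 0.000408). Rbl1, the retinoblastoma relative p107, rose by 0.44. Both falls, which were named after their values were seen, were of inhibitors typical of resting cells: Cdkn1b, the CDK inhibitor p27, with 53.2, 49.1 and 53.01 against 35.4, 37.99 and 39.4 FPKM (log2 difference -0.45, SE 0.055, limma adjusted p = 0.00133), and Rbl2, the relative p130, with a log2 difference of -0.27, limma adjusted p = 0.00353. The D cyclins, which connect growth factor signals to the cell cycle, were called less firmly. Ccnd2 and Ccnd3 had log2 differences of 0.29 and 0.20 (limma adjusted p = 0.0127 and 0.0219), and Ccnd1 -0.15, limma adjusted p = 0.178. The Ccnd2 call was lost without untreated replicate 3 (0.27), and that of Ccnd3 without any 1 of the untreated replicates or IgE replicate 2 (0.19 to 0.21). Cdkn1a, the CDK inhibitor p21, rose as well, from 21.6, 20.5 and 21.9 to 26.6, 26.9 and 33.2 FPKM. Cdkn1a differed by 0.41 on the log2 scale (SE 0.082, limma adjusted p = 0.0091). Myc, a growth-promoting factor, had 9.76, 10.3 and 9.7996 FPKM untreated and 11.4, 11.8 and 16.5 FPKM with IgE (log2 difference 0.36, SE 0.12, limma adjusted p = 0.0614); it was not called, IgE replicate 3 stood above the other 2, and it was called without IgE replicate 1 (0.45) and without IgE replicate 3 (0.20).

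Mitotic genes rose as well. Of 18 cyclin B, CDK1 and mitotic kinase genes 17 rose (median 0.39), and of 30 kinetochore, spindle and cytokinesis genes 29 rose (median 0.41), and 0 of either list fell. Aurkb, a kinase of the chromosomal passenger complex, had 14.6, 16.004 and 15.2 FPKM untreated and 24.6, 23.5 and 21.5 FPKM with IgE. Aurkb differed by 0.57 on the log2 scale (SE 0.060, limma adjusted p = 0.000831). Its partners Birc5 and Cdca8 rose by 0.44 and 0.48, Pbk, a mitotic kinase, by 0.70, and Mad2l1, a spindle checkpoint protein, by 0.47. Condensins, cohesins and topoisomerases split: 9 of 16 rose and 1 fell, with the condensin subunits Ncapg, Ncapg2 and Ncaph higher by 0.55, 0.61 and 0.51, and the proliferation marker Mki67 at 79.4, 72.3 and 75.9 against 106, 98.6 and 108 FPKM. Of the 12 genes of the anaphase-promoting complex and mitotic exit 7 rose, and 4 to 9 did with 1 library left out, the 4 without untreated replicate 1. The counts of rises in the other 8 lists of division moved by no more than 1.5 times with any 1 library left out. Histone genes of the Hist clusters, a family examined after its values were seen, were among the risers too: 44 of 56 tested were called higher and 0 lower, with a median of 0.56. Without IgE replicate 3 the counts were 45 and 0, and the counts without each of the other libraries were not made for this family. Near-identical histone genes can share reads, so these calls are not separate results. Falls among condensins, cohesins and topoisomerases numbered 0 to 1 (past 1.5 times without untreated replicates 1, 2 and 3 and IgE replicate 2) with 1 library left out.

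Among erythroid markers, 2 were higher beside these genes. Of 15 erythroid markers 3 were tested and 2 rose, Hbb-bt (a beta globin, 13.99, 16.6 and 14.3 against 21.9, 20.3 and 21.2 FPKM) and Tfrc (the transferrin receptor, which any dividing cell uses, 4.67, 6.35 and 5.17 against 10.5, 9.98 and 9.304 FPKM). The summed level of the erythroid list was 22.8 to 27.6 FPKM untreated and 34.98 to 36.7 FPKM with IgE, and most of it came from Hbb-bt and Tfrc. Of the other markers 11 were under the filter, and 1, Slc4a1, was at 0 throughout. Stem and progenitor markers had 0 rises and 0 falls in 7 genes, with summed levels of 1383 to 1461 and 1333 to 1483 FPKM. Their part in the division genes was not tested. In bulk RNA, fewer cells of a type and less RNA per cell cannot be told apart, and likewise a larger share of dividing cells and more RNA per dividing cell. Falls among stem and progenitor markers numbered 0 to 1 (past 1.5 times without IgE replicate 3) with 1 library left out.

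Because E2F factors and the DREAM complex act through short promoter elements, the promoters of the division genes were read from the RefSeq table, whose windows run from 250 bases before to 50 bases after a gene's start (build GRCm38.p6; the deposited levels were made on mm9). Promoters were found for 8065 of the 10630 genes, in 10239 windows. The letters searched on both strands were TTTCCCGC, TTTGGCGC, TTTCGCGC and TTTGCCGC for E2F sites, TTTGAA for the cell cycle homology region (CHR) that DREAM binds, and CCAAT for the box bound by NF-Y; E2F words can overlap each other. The E2F letters were in 2.26% of all 32851 windows of the table and 4.18% of the windows of tested genes, against 40.9% of the 22 windows of the licensing list, 26.7% of the 30 of the fork list, 25.9% of the 27 of the G1 list and 4.55% of the 22 of nucleotide synthesis. The CHR letters were in 17.9% of all windows and 12.1% of those of tested genes, against 72.4% of the 29 windows of the kinetochore list and 46.2% of the 13 of the mitotic kinase list. CCAAT was in 37.4% of all windows and in 72.4% of those of the kinetochore list. A match describes the letters and does not show binding. The 250 bases before the start of 3 genes show the layouts, with E2F, CHR and CCAAT letters in capitals; Cdk1 and Kif11 were chosen for their letters.
Mcm5, chr8:75109259-75109508, plus strand, an overlapping pair of E2F words and 2 CCAAT boxes: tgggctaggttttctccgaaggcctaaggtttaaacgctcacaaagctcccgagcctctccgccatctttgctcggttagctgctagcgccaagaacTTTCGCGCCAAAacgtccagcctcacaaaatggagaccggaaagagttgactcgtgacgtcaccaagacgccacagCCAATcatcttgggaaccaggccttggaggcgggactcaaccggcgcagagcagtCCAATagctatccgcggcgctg
Cdk1, chr10:69352913-69353162, minus strand, 1 E2F word, 2 CHR words and 3 CCAAT boxes: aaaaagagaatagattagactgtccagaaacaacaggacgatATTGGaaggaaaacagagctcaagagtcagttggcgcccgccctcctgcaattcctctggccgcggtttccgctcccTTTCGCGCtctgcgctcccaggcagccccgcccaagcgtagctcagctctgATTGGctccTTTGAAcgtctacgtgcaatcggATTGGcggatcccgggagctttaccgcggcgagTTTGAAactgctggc
Kif11, chr19:37376132-37376381, plus strand, 1 CHR word and 1 CCAAT box: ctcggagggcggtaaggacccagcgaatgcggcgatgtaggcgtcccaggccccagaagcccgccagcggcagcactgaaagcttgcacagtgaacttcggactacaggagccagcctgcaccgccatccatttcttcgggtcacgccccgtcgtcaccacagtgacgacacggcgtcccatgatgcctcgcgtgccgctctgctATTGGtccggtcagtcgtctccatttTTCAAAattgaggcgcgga
Cdk1, the kinase that starts mitosis, had 17.05, 18.97 and 18.6 FPKM untreated and 27.1, 28.4 and 25.01 FPKM with IgE, and Kif11, a spindle motor, 27.2, 29.1 and 27.9 and 41.5, 39.7 and 34.7 FPKM, so both rose (log2 differences 0.53 and 0.45, limma adjusted p = 0.00106 and 0.00311).

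**Figure D3:**
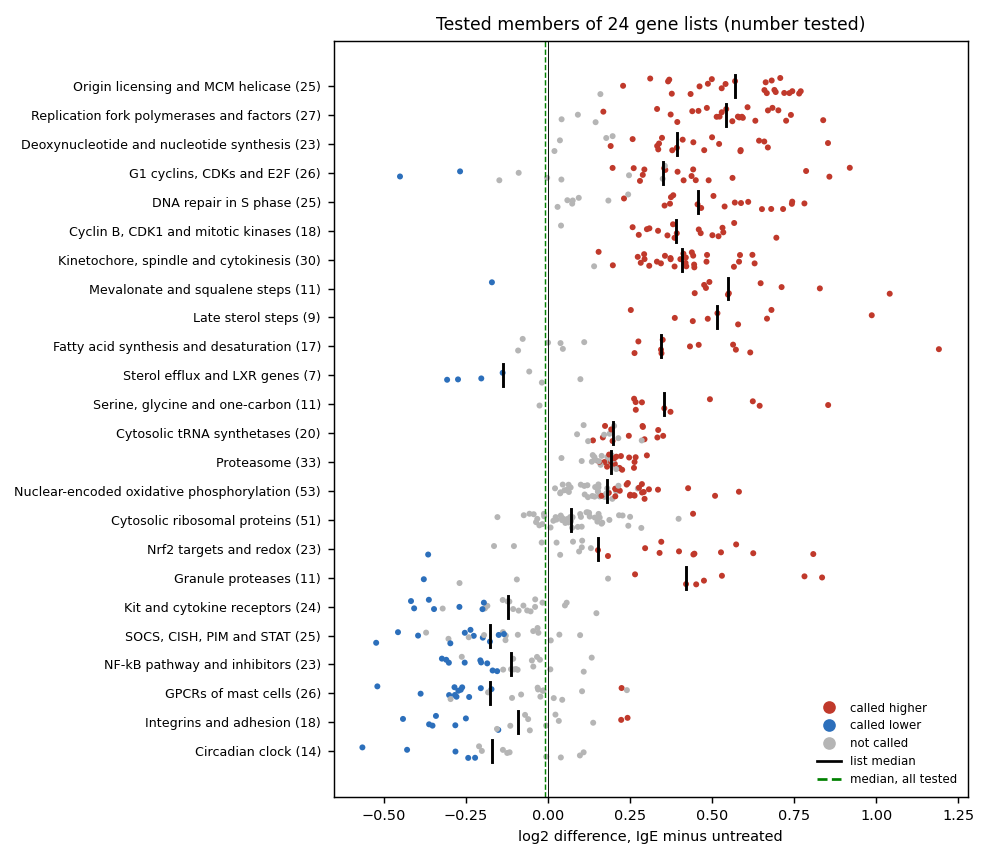
Log2 difference between IgE and untreated libraries (horizontal) for each tested member of 24 gene lists (rows, number tested in brackets), red for called higher, blue for called lower and grey for not called, with the list median as a black bar and the median of all tested genes as a dashed line. Lists of DNA replication, mitosis and sterol synthesis lie to the right with medians of 0.35 to 0.57, ribosomal proteins sit close to 0, and cytokine receptor, JAK-STAT, NF-kB and G protein-coupled receptor lists lie slightly to the left.

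Cholesterol synthesis genes rose along nearly the whole route. Cells make sterols from acetyl-CoA through mevalonate, squalene and lanosterol, and the SREBP2 factor raises these genes when the sterol of the endoplasmic reticulum is low. Of the 11 tested genes from acetyl-CoA to lanosterol 10 rose and 1 fell (median 0.55), and of the 9 later genes 9 rose (median 0.52). With any 1 library left out, 10 of the first list and 8 to 9 of the second rose. Hmgcs1, a synthase early in the route, is listed at 0 in all 6 libraries. Fdps, which makes farnesyl diphosphate, was at 54.8, 60.96 and 60.8 FPKM and then 125, 129.5 and 112 FPKM (log2 difference 1.04, SE 0.067, limma adjusted p = 0.000189), with IgE replicate 3 the lowest of its group and still well above the untreated values. Tm7sf2, a sterol reductase after lanosterol, went from 4.58, 4.91 and 4.38 to 10.6, 9.87 and 9.91 FPKM. Tm7sf2 differed by 0.99 on the log2 scale (SE 0.058, limma adjusted p = 0.000116). Mvd, the decarboxylase of the mevalonate steps, went from 11.7, 12.6 and 11.7 to 22.6, 22.3 and 21.3 FPKM. Mvd differed by 0.83 on the log2 scale (SE 0.049, limma adjusted p = 0.000116). The other rises of both lists ranged from 0.25 for Ebp, an isomerase, to 0.71 for Acat2, the first thiolase. The fall, named after its value was seen, was Ggps1, which turns farnesyl into geranylgeranyl diphosphate away from the sterol branch (-0.17), and its call was lost without any 1 of the 6 libraries (-0.13 to -0.19).

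**Figure D4:**
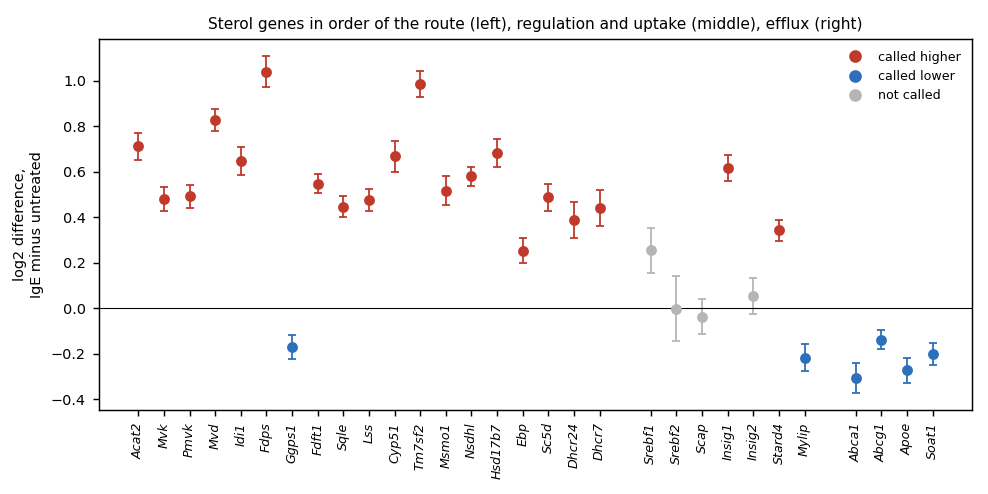
Log2 difference between IgE and untreated libraries (vertical; points, bars ± SE of the fit) for 19 sterol synthesis genes in the order of the route (left), 7 genes of regulation and uptake (middle) and 4 genes of efflux and storage (right), red for called higher, blue for called lower and grey for not called. The synthesis genes other than Ggps1 lie above 0, from 0.25 for Ebp to 1.04 for Fdps, and Insig1 and Stard4 lie above 0. The 4 efflux and storage genes shown lie below 0 and are the 4 called lower of 7 tested. The 3 not shown were not called, and 1 of the 7 tested had a positive difference.

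Most regulators were not called, and the efflux genes that were called fell. Of 13 regulators and uptake genes 3 rose and 1 fell, a share of calls near the 25% among all tested genes. Insig1, which holds SREBP in the endoplasmic reticulum and is itself an SREBP target, rose from 43.4, 49.4 and 44.6 to 71.6, 72.5 and 68.1 FPKM (log2 difference 0.62, SE 0.058, limma adjusted p = 0.000551), and Stard4, a sterol carrier, by 0.34. Mylip, a ubiquitin ligase, fell by 0.22 on the log2 scale, a call lost without untreated replicate 1 (-0.20) or 3 (-0.20) or IgE replicate 1 (-0.17) or 2 (-0.23). Srebf2, which encodes SREBP2, had 28.1, 25.98 and 25.7 FPKM untreated and 22.9, 23.3 and 35.02 FPKM with IgE (log2 difference -0.002, SE 0.14, limma adjusted p = 0.992); IgE replicate 3 stood above all other libraries and the other 2 IgE libraries below them, and without IgE replicate 3 the gene was called lower (-0.20). Of 7 efflux and storage genes 0 rose and 4 fell: Abca1 and Abcg1, which export cholesterol, Apoe, its carrier (38.5, 41.96 and 42.1 against 32.6, 35.3 and 32.98 FPKM, -0.27, limma adjusted p = 0.00849), and Soat1, which esterifies it. The Abcg1 call (-0.14) was lost without any 1 library except IgE replicate 3, and that of Soat1 (-0.20) without untreated replicate 1 (-0.21) or 3 (-0.18). Abca1 went from 2.25, 2.39 and 2.398 to 1.73, 1.55 and 1.83 FPKM (-0.31, limma adjusted p = 0.0126), a call lost without untreated replicate 3 (-0.30) or IgE replicate 2 (-0.27). Falls among efflux and storage genes numbered 1 to 5 (past 1.5 times without untreated replicates 1 and 3 and IgE replicate 2) with 1 library left out. Falls among sterol regulators and uptake genes numbered 0 to 3 (past 1.5 times without untreated replicates 1 and 3 and IgE replicates 1, 2 and 3) with 1 library left out.

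Windows were found for 7 of the 11 tested mevalonate genes and 8 of the 9 late sterol genes. None of the 8 windows of the mevalonate list and none of the 10 of the late sterol list held TCACNCCAC. These are the letters searched for the sterol element on both strands, and they were in 1.24% of all windows. At that rate so few windows would mostly hold none, so the absence cannot show whether the element is lacking. CCAAT was in 75.0% and 80.0% of the windows of these lists, against 37.4% of all. The window of Mvd carries 2 CCAAT boxes, in capitals.
Mvd, chr8:122443423-122443672, minus strand, 250 bases before the start: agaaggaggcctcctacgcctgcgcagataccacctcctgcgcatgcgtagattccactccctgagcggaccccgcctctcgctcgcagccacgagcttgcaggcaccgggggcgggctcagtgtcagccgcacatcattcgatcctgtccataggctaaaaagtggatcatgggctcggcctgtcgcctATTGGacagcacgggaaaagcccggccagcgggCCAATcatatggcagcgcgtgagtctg

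Fatty acid synthesis rose with it: 11 of 17 genes were higher and 0 lower (median 0.34), 8 to 12 with 1 library left out. Scd1, which introduces the double bond of oleate, went from 6.91, 6.73 and 6.63 to 16.2, 15.8 and 18.2 FPKM (log2 difference 1.19, SE 0.060, limma adjusted p = 7.62e-05), and the more abundant Scd2 from 92.8, 96.7 and 90.7 to 139, 135 and 158 FPKM. Scd2 differed by 0.62 on the log2 scale (SE 0.065, limma adjusted p = 0.000803). Fads2, a desaturase of polyunsaturated fatty acids, rose by 0.56. In both Scd genes IgE replicate 3 was the highest library. Fatty acid oxidation and PPAR genes had 1 rise and 2 falls in 15, a share of calls near the 25% among all tested genes. The falls were Cyp4a12a (34.4, 39.2 and 36.1 against 17.2, 17.8 and 17.6 FPKM) and Cyp4a12b (16.1, 17.3 and 16.7 against 7.09, 7.11 and 7.72 FPKM), fatty acid hydroxylases whose near-identical sequences can share reads, so that their separate values are uncertain. Their log2 differences of -1.02 and -1.09 led the falls outside short RNAs. Falls among fatty acid synthesis genes numbered 0 to 1 (past 1.5 times without IgE replicate 3) with 1 library left out. Rises among fatty acid oxidation genes numbered 0 to 5 (past 1.5 times without untreated replicate 2 and IgE replicates 2 and 3) with 1 library left out.

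Genes that make and use serine rose. Serine made from a glycolytic intermediate feeds glycine and the folate cycle, which in turn supplies nucleotide synthesis. Of 11 genes of serine, glycine and folate metabolism 10 rose and 0 fell (median 0.35). Phgdh, the first enzyme of serine synthesis, was at 13.6, 17.96 and 14.95 FPKM untreated and 28.9, 29.8 and 27.2 FPKM with IgE. Phgdh differed by 0.85 on the log2 scale (SE 0.091, limma adjusted p = 0.000831). Psat1, the next, was at 42.3, 50.9 and 46.2 and 73.9, 73.9 and 68.2 FPKM. Psat1 differed by 0.62 on the log2 scale (SE 0.070, limma adjusted p = 0.00095). Mthfd1l, of the mitochondrial folate route, rose by 0.65. Of 19 genes of the ATF4 and amino acid supply list, 7 rose and 1 fell, with Asns, asparagine synthetase, from 36.6, 44.5 and 39.6 to 61.6, 63.2 and 56.4 FPKM (log2 difference 0.58, SE 0.075, limma adjusted p = 0.00163) and Trib3 by 0.47. The list holds Atf4 itself, the amino acid stress factor, which went from 206, 247 and 203 to 278, 278 and 273 FPKM (0.34, limma adjusted p = 0.0145). Its call was lost without untreated replicate 1 (0.30) or 3 (0.29). Cytosolic tRNA synthetases rose in 12 of 20 (all 20 had a positive difference, median 0.20), Aars, Gars and Mars by 0.33, 0.34 and 0.35. Rises among serine and folate genes numbered 5 to 10 (past 1.5 times without untreated replicates 1 and 3) with 1 library left out. Rises among ATF4 and amino acid supply genes numbered 2 to 8 (past 1.5 times without untreated replicates 1 and 3) with 1 library left out. Rises among tRNA synthetases numbered 7 to 19 (past 1.5 times without untreated replicates 1 and 3 and IgE replicates 2 and 3) with 1 library left out. Falls among ATF4 and amino acid supply genes numbered 0 to 1 (past 1.5 times without untreated replicates 1, 2 and 3 and IgE replicates 1 and 2) with 1 library left out.

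The machinery of protein synthesis moved unequally. Ribosome biogenesis genes rose in 14 of 27 (median 0.20), led by Fbl, a methyltransferase of ribosomal RNA (27.7, 30.1 and 28.3 against 38.03, 35.7 and 37.5 FPKM, 0.36, limma adjusted p = 0.002), and its partner Nop56 (0.36, limma adjusted p = 0.00323). Cytosolic ribosomal proteins had 1 rise, Rps2 (618, 714 and 687 against 937, 948 and 857 FPKM, 0.44, limma adjusted p = 0.00522), and 0 falls in 51, a share below the 13.5% of all tested genes; their median of 0.070 became -0.004 after quantile normalization. RNA polymerase I and III genes had 1 rise and 2 falls in 19, a share of calls below the 25% among all tested genes. Nuclear pore and import genes rose in 19 of 26, with Ran, the GTPase that drives import, at 64.4, 76.1 and 70.2 against 106, 105 and 95.6 FPKM (0.54, limma adjusted p = 0.00158) and its regulators Ranbp1 and Rangap1 higher by 0.48 and 0.38. Translation factors rose in 7 of 22, against 13.5% of all tested genes, with Eif5a higher by 0.39. Rises among ribosome biogenesis genes numbered 4 to 16 (past 1.5 times without untreated replicates 1 and 3 and IgE replicate 2) with 1 library left out. Rises among ribosomal proteins numbered 1 to 10 (past 1.5 times without IgE replicates 1 and 3) with 1 library left out. Rises among nuclear import genes numbered 11 to 21 (past 1.5 times without untreated replicates 1 and 3 and IgE replicate 2) with 1 library left out. Rises among translation factors numbered 6 to 13 (past 1.5 times without IgE replicate 3) with 1 library left out. Falls among polymerase I and III genes numbered 1 to 2 (past 1.5 times without untreated replicates 1 and 3 and IgE replicate 1) with 1 library left out. Rises among polymerase I and III genes numbered 1 to 3 (past 1.5 times without untreated replicate 2 and IgE replicate 3) with 1 library left out.

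Genes of energy metabolism rose in part, by smaller amounts. All 53 nuclear-encoded oxidative phosphorylation genes had a positive difference (median 0.18), and 23 were called higher. Uqcrq, of complex III, was at 46.9, 52.7 and 49.3 FPKM untreated and 75.01, 76.2 and 72.96 FPKM with IgE. Uqcrq differed by 0.58 on the log2 scale (SE 0.052, limma adjusted p = 0.000513). Atp5g1, of the ATP synthase, was at 51.4, 57.2 and 56.7 and 78.3, 80.96 and 77.2 FPKM. Atp5g1 differed by 0.51 on the log2 scale (SE 0.053, limma adjusted p = 0.000803). Mitochondrial ribosomal proteins had 10 rises and 0 falls in 46 genes, where 13.5% of all tested genes rose. Citric acid cycle genes had 5 rises and 1 fall in 21, a share of calls near the 25% among all tested genes. Idh3a was higher by 0.41, and Pcx, which refills the cycle from pyruvate, was at 22.7, 25.2 and 22.9 against 17.2, 16.4 and 19.98 FPKM (-0.39, limma adjusted p = 0.00882). Glycolysis and pentose phosphate genes had 15 rises and 2 falls in 28, with the pentose enzymes Tkt and Pgls higher by 0.43 and 0.38, while Slc2a1, the glucose transporter GLUT1, fell from 51.4, 51.8 and 50.3 to 36.7, 36.8 and 39.2 FPKM. Slc2a1 differed by -0.44 on the log2 scale (SE 0.044, limma adjusted p = 0.000751). Slc2a1 thus moved in the direction opposite to most glycolytic genes called. Arrdc4, an arrestin that like Txnip responds to glucose, fell from 3.89, 3.74 and 3.72 to 1.57, 2.203 and 2.05 FPKM. Arrdc4 differed by -0.71 on the log2 scale (SE 0.087, limma adjusted p = 0.00136). Rises among oxidative phosphorylation genes numbered 8 to 41 (past 1.5 times without untreated replicates 1 and 3 and IgE replicates 1, 2 and 3) with 1 library left out. Rises among mitochondrial ribosomal proteins numbered 3 to 24 (past 1.5 times without untreated replicates 1 and 3 and IgE replicates 1, 2 and 3) with 1 library left out. Rises among citric acid cycle genes numbered 2 to 10 (past 1.5 times without untreated replicates 1, 2 and 3 and IgE replicates 1, 2 and 3) with 1 library left out. Falls among glycolytic and pentose genes numbered 1 to 2 (past 1.5 times without untreated replicates 1, 2 and 3 and IgE replicates 1 and 2) with 1 library left out. Falls among mitochondrial ribosomal proteins numbered 0 to 1 (past 1.5 times without IgE replicates 2 and 3) with 1 library left out.

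Protein folding and turnover genes rose together in part. Of 31 genes of the endoplasmic reticulum 13 rose and 1 fell (10 to 19 rises with 1 library left out): Calr, a calcium-binding chaperone, had 639, 644 and 643 FPKM untreated and 1076, 1028 and 1017 FPKM with IgE (log2 difference 0.69, SE 0.057, limma adjusted p = 0.000403), and Sdf2l1 and Pdia6 rose by 0.60 and 0.54. Chaperonin and heat shock protein genes rose in 11 of 22, with Hsp90ab1 at 568, 562 and 577 against 767, 703 and 738 FPKM (0.37, limma adjusted p = 0.00357). Proteasome genes were all above 0 in difference (33 of 33, median 0.19) and 16 were called, Psmb5 by 0.30. Of 23 redox genes, many of them targets of Nrf2, 12 rose and 1 fell, 9 to 14 rises with 1 library left out. Mt1, a metallothionein that binds zinc, went from 136, 119 and 126 to 204, 238 and 227 FPKM. Mt1 differed by 0.81 on the log2 scale (SE 0.072, limma adjusted p = 0.00051). Srxn1, which repairs peroxiredoxins, rose from 33.2, 34.4 and 36.1 to 54.96, 54.9 and 51.7 FPKM. Srxn1 differed by 0.63 on the log2 scale (SE 0.049, limma adjusted p = 0.000324). Iron and haem genes rose in 7 of 19, with Tfrc and the iron reductase Steap3 higher by 0.78 and 0.65. Rises among chaperonin and heat shock protein genes numbered 4 to 17 (past 1.5 times without untreated replicates 1 and 3 and IgE replicates 1, 2 and 3) with 1 library left out. Rises among proteasome genes numbered 2 to 31 (past 1.5 times without untreated replicates 1, 2 and 3 and IgE replicates 1, 2 and 3) with 1 library left out. Rises among iron and haem genes numbered 4 to 7 (past 1.5 times without untreated replicates 1, 2 and 3 and IgE replicate 2) with 1 library left out. Falls among endoplasmic reticulum genes numbered 0 to 2 (past 1.5 times without untreated replicates 1, 2 and 3 and IgE replicates 1, 2 and 3) with 1 library left out. Falls among redox genes numbered 0 to 1 (past 1.5 times without untreated replicates 1 and 3 and IgE replicates 1 and 2) with 1 library left out.

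**Figure D5:**
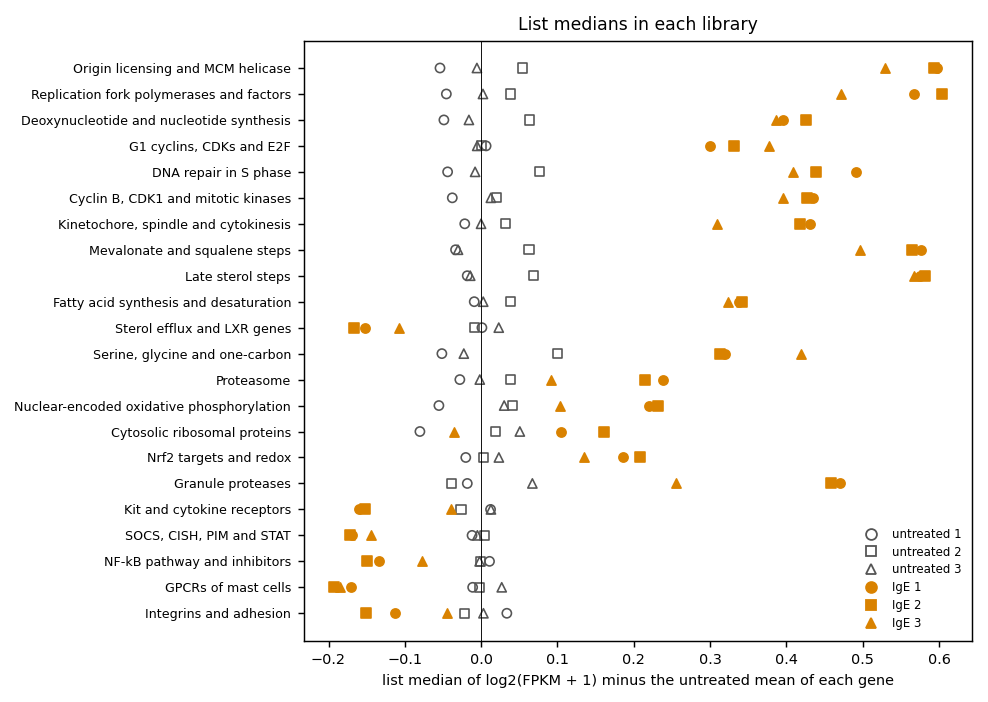
Median over the tested members of 22 lists (rows) of log2(FPKM + 1) minus the untreated mean of each gene (horizontal), for the 3 untreated libraries (open grey symbols) and the 3 IgE libraries (filled orange; circle, square and triangle for replicates 1, 2 and 3). In the division and sterol lists all 3 IgE libraries stand clear of the untreated ones, while for proteasome, oxidative phosphorylation, ribosomal protein, granule protease and cytokine receptor lists IgE replicate 3 lies closer to the untreated libraries than the other 2.

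IgE replicate 3 lay nearer to the untreated libraries for several of these lists. The medians of IgE replicates 1, 2 and 3 were 0.24, 0.22 and 0.09 for the proteasome list and 0.22, 0.23 and 0.10 for the oxidative phosphorylation list, with untreated medians close to 0. The values were 0.60, 0.59 and 0.53 for the licensing list, 0.58, 0.56 and 0.50 for the mevalonate list, 0.57, 0.60 and 0.47 for the fork list and 0.43, 0.42 and 0.31 for the kinetochore list, so in these too IgE replicate 3 was the lowest of the 3. In other lists it was the highest, with 0.30, 0.33 and 0.38 for the G1 list and 0.32, 0.31 and 0.42 for the serine and folate list.

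No chain of the receptor that binds IgE was called in the reported fit. Fcer1a, the IgE-binding alpha chain, was at 5328, 5808 and 5821 FPKM untreated and 6093, 5891 and 4931 FPKM with IgE (log2 difference -0.008, SE 0.12, limma adjusted p = 0.965). Ms4a2, the beta chain, was at 1174, 1188 and 1209 and 1159, 1080.0 and 1002 FPKM. Ms4a2 differed by -0.14 on the log2 scale (SE 0.073, limma adjusted p = 0.188). Fcer1g, the gamma chain, was at 707, 708 and 699.8 and 729, 708 and 687 FPKM (log2 difference 0.005, SE 0.056, limma adjusted p = 0.959). For Ms4a2 all 3 IgE values lay below all 3 untreated ones, and it was called lower after quantile normalization (-0.17, limma adjusted p = 0.0298), but for the alpha and gamma chains the groups overlapped. Mrgprb2, the receptor for cationic secretagogues, was the single call of the 7 IgE, IgG and related receptors, with 146, 163 and 169 against 143, 133 and 114 FPKM (-0.29, limma adjusted p = 0.0432), and it was lost without untreated replicate 2 or 3 or IgE replicate 2.

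Downstream of the receptor, more of the called genes fell than rose. Of 30 genes of proximal signalling 2 rose and 9 fell, where 25% of all tested genes were called. Prkcb, a protein kinase C, rose from 174, 170.4 and 172 to 208, 199.7 and 206 FPKM (0.25, limma adjusted p = 0.00576) and Ripk3, a kinase of necroptosis, by 0.40. Rasgrp1, an activator of Ras, fell from 3.48, 3.702 and 3.57 to 2.52, 2.67 and 2.91 FPKM (-0.31, limma adjusted p = 0.00967). Of 23 negative regulators 1 rose and 5 fell, a share of calls near the 25% among all tested genes. Dgka, which removes diacylglycerol, was at 7.16, 6.11 and 6.41 against 5.28, 4.67 and 5.01 FPKM (-0.34, limma adjusted p = 0.0105). Feedback inhibitors of MAP kinases had 3 rises and 1 fall in 17, a share of calls that is also near the 25% among all tested genes. Dusp6 and Dusp4, phosphatases that ERK signalling induces and that act on MAP kinases, rose from 8.599, 10.3 and 9.47 to 16.1, 16.1 and 14.8 FPKM (log2 difference 0.68, SE 0.068, limma adjusted p = 0.000751) and from 6.57, 8.59 and 6.3003 to 11.8, 11.3 and 13.3 FPKM. Dusp4 differed by 0.69 on the log2 scale (SE 0.11, limma adjusted p = 0.00329). Errfi1, an inhibitor of EGF receptor kinases, fell by 0.29 on the log2 scale. Falls among proximal signalling genes numbered 2 to 16 (past 1.5 times without untreated replicates 1, 2 and 3 and IgE replicates 1, 2 and 3) with 1 library left out. Falls among negative regulators numbered 2 to 8 (past 1.5 times without untreated replicates 1, 2 and 3 and IgE replicates 2 and 3) with 1 library left out. Falls among MAP kinase inhibitors numbered 1 to 4 (past 1.5 times without IgE replicate 3) with 1 library left out. Rises among negative regulators numbered 0 to 2 (past 1.5 times without untreated replicates 1 and 3 and IgE replicates 1, 2 and 3) with 1 library left out.

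Of 22 immediate early transcription factors that passed the filter, 4 rose and 3 fell, a share of calls near the 25% among all tested genes. The rises include Egr1, which passed the filter through the IgE libraries alone. Nab2, a corepressor that Egr1 induces, rose from 3.95, 3.86 and 3.92 to 4.86, 5.16 and 5.53 FPKM (0.33, limma adjusted p = 0.00587) and Klf10 by 0.30, while Bhlhe40 fell from 114, 119 and 112 to 81.7, 82.03 and 92.1 FPKM. Bhlhe40 differed by -0.43 on the log2 scale (SE 0.058, limma adjusted p = 0.00195). The other rise, Ier2 (0.23), and the other falls, Batf (-0.22) and Klf2 (-0.40), were named after their values were seen. The Ier2 call was lost without untreated replicate 1 (0.19) or 3 (0.22) or IgE replicate 2 (0.21), that of Batf without any 1 untreated replicate or IgE replicate 1 (-0.20 to -0.25), and that of Klf2 without any 1 library except IgE replicate 3 (-0.28 to -0.45). Falls among immediate early factors numbered 1 to 4 (past 1.5 times without untreated replicates 1, 2 and 3 and IgE replicate 1) with 1 library left out.

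Tnf rose, while most inflammatory genes that were called fell. NF-kB pathway genes had 0 rises and 9 falls in 23 (median -0.11): the subunit Nfkb1 went from 72.9, 76.8 and 77.4 to 63.1, 64.1 and 62.8 FPKM (-0.25, limma adjusted p = 0.00494), and Birc3 and Map3k14, of the receptor arm, fell by 0.31 and 0.32 on the log2 scale. Of 22 tested cytokines and growth factors 4 rose and 7 fell. Il1b, an inflammatory cytokine, fell from 23.1, 22.7 and 22.3 to 15.2, 14.3 and 11.6 FPKM (log2 difference -0.69, SE 0.086, limma adjusted p = 0.00141), with IgE replicate 3 the lowest. Hgf, hepatocyte growth factor, fell from 31.1, 30.03 and 31.9 to 25.5, 23.7 and 22.6 FPKM. Hgf differed by -0.36 on the log2 scale (SE 0.054, limma adjusted p = 0.00289). The type 2 cytokines Il13 and Il4 were called lower: Il13 had 2.199, 3.52 and 2.699 FPKM untreated and 1.52, 1.81 and 1.19 FPKM with IgE (-0.59, limma adjusted p = 0.0159), a call lost without untreated replicate 3 (-0.61), and Il4 12.1, 12.8 and 13.7 and 10.4, 10.9 and 8.87 FPKM (-0.33, limma adjusted p = 0.0186), a call lost without untreated replicate 2 (-0.33) or 3 (-0.29). Tnfsf14, a TNF family ligand, rose from 24.2, 24.3 and 25.9 to 30.8, 31.9 and 30.9 FPKM (0.32, limma adjusted p = 0.00235). Il6 was at 33.9, 41.3 and 36.2 and 32.8, 34.1 and 27.7 FPKM and was not called (-0.23, limma adjusted p = 0.103), and Il3 is listed at 0 in all 6 libraries. Falls among NF-kB genes numbered 4 to 11 (past 1.5 times without untreated replicates 1, 2 and 3 and IgE replicate 2) with 1 library left out. Rises among cytokines numbered 2 to 6 (past 1.5 times without untreated replicates 1, 2 and 3 and IgE replicate 2) with 1 library left out. Falls among cytokines numbered 4 to 9 (past 1.5 times without untreated replicate 3) with 1 library left out.

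Of 9 chemokines 2 rose and 2 fell. Ccl7, which attracts monocytes, went from 3.24, 4.08 and 2.89 to 7.19, 6.49 and 6.05 FPKM (log2 difference 0.79, SE 0.10, limma adjusted p = 0.00163), and its neighbour in function Ccl2 from 216, 221 and 251 to 285, 332 and 276 FPKM (0.37, limma adjusted p = 0.0151), a call lost without untreated replicate 1 (0.33) or 2 (0.35). The falls, Ccl6 (-0.23) and Cxcl16 (-0.21), were each lost without any 1 of the untreated replicates or IgE replicates 1 and 2, and that of Cxcl16 also without IgE replicate 3. Rises among chemokines numbered 1 to 3 (past 1.5 times without untreated replicates 1 and 2) with 1 library left out.

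Granule genes split by kind. Mast cell granules store serine proteases on the proteoglycan serglycin, together with amines. Of 11 granule proteases 7 rose and 1 fell (median 0.42), 6 to 7 rises with 1 library left out. Ctsg, cathepsin G, was at 8.22, 8.24 and 8.56 FPKM untreated and 16.8, 16.4 and 13.9 FPKM with IgE. Ctsg differed by 0.84 on the log2 scale (SE 0.071, limma adjusted p = 0.000446). Mcpt4, a chymase, was at 6.23, 5.37 and 7.34 and 11.7, 13.1 and 9.898 FPKM. Mcpt4 differed by 0.78 on the log2 scale (SE 0.12, limma adjusted p = 0.00287). Gzmb, granzyme B, was at 1143, 1128 and 1204 and 1604, 1641 and 1509.6 FPKM. Gzmb differed by 0.45 on the log2 scale (SE 0.070, limma adjusted p = 0.00333). In each the groups stood apart, and IgE replicate 3 was the lowest of the IgE libraries. Mcpt8, a protease also made by basophils, rose by 0.42, while Prss34, another basophil and mast cell protease, fell from 120.3, 109 and 132 to 95.6, 90.7 and 90.1 FPKM (-0.38, limma adjusted p = 0.00728). The abundant tryptase Tpsb2, which can share reads with Tpsab1, was at 6729, 6389 and 6922 and 6023, 6337 and 6407 FPKM and was not called (-0.09, limma adjusted p = 0.544); it was named after its values were seen. Cpa3, Cma1, Gzma, Gzmf, Gzmg and Prf1 are listed at 0 in all 6 libraries. Falls among granule proteases numbered 1 to 2 (past 1.5 times without untreated replicate 2) with 1 library left out.

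Of 20 genes of amine and heparin storage and synthesis 1 rose and 3 fell, a share near the 25% called among all tested genes. Slc18a2, which loads histamine and serotonin into granules, fell from 447, 463 and 458 to 379.6, 366 and 361 FPKM. Slc18a2 differed by -0.31 on the log2 scale (SE 0.050, limma adjusted p = 0.00444). Hs3st1, a heparan sulfotransferase, fell from 59.7, 56.7 and 60.2 to 41.3, 43.8 and 44.4 FPKM. Hs3st1 differed by -0.44 on the log2 scale (SE 0.047, limma adjusted p = 0.000848). Ddc, a decarboxylase of the serotonin route, rose from 11.5, 11.3 and 12.3 to 16.2, 17.5 and 15.5 FPKM (0.45, limma adjusted p = 0.00156). Hdc, which makes histamine, was at 25.9, 27.2 and 28.3 and 30.3, 28.7 and 27.1 FPKM and was not called (0.08, limma adjusted p = 0.342). Lysosomal genes rose in 7 of 28, against 13.5% of all tested genes, with Gusb, beta-glucuronidase, higher by 0.37. Exocytosis genes fell in 4 of 23, a share near the 11.5% called lower among all tested genes. Snap23, a fusion protein of the plasma membrane, was at 139, 138 and 143 against 121, 115 and 104 FPKM (-0.30, limma adjusted p = 0.00882). Rab37, a small GTPase of secretion, fell from 169, 164 and 167 to 141, 141 and 138 FPKM (-0.25, limma adjusted p = 0.00469). Rises among lysosomal genes numbered 2 to 11 (past 1.5 times without untreated replicates 1, 2 and 3 and IgE replicates 1, 2 and 3) with 1 library left out. Falls among exocytosis genes numbered 2 to 8 (past 1.5 times without untreated replicates 1 and 3 and IgE replicates 2 and 3) with 1 library left out.

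Receptors and transducers of growth cytokines were not called or fell. Kit was at 472, 419.9 and 450.4 FPKM untreated and 408, 395 and 497 FPKM with IgE. Kit differed by -0.05 on the log2 scale (SE 0.093, limma adjusted p = 0.71). Il3ra, the IL-3 receptor alpha chain, was at 17.7, 17.5 and 18.3 and 16.6, 17.2 and 22.4 FPKM (0.06, limma adjusted p = 0.703). For both, IgE replicate 3 was the highest library. Of 24 cytokine receptors 0 rose and 7 fell (5 to 10 falls with 1 library left out): Il4ra, the IL-4 receptor, fell from 272, 281 and 278 to 202, 202 and 223 FPKM. Il4ra differed by -0.41 on the log2 scale (SE 0.055, limma adjusted p = 0.00188). Il10ra fell from 95.3, 92.8 and 95.1 to 75.1, 74.6 and 72.3 FPKM (log2 difference -0.35, SE 0.041, limma adjusted p = 0.00115) and Il1rap by 0.36 on the log2 scale. Csf2rb and Csf2rb2, the shared beta chains of the IL-3 receptor, were not called (-0.19 and -0.32, limma adjusted p = 0.133 and 0.115) but were called lower without IgE replicate 3 (-0.28 and -0.46); these 2 paralogs can share reads.

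Genes of the JAK-STAT route and its feedback fell in 11 of 25 and rose in 0 (median -0.18). Pim1, a survival kinase induced by STAT5, fell from 283, 299 and 286 to 194, 196 and 213 FPKM. Pim1 differed by -0.52 on the log2 scale (SE 0.055, limma adjusted p = 0.000803). Stat3 fell from 45.7, 42.7 and 45.9 to 32.2, 33.1 and 36.2 FPKM. Stat3 differed by -0.40 on the log2 scale (SE 0.056, limma adjusted p = 0.00233). Jak2, the kinase on the IL-3 receptor, fell from 59.1, 58.8 and 61.01 to 51.3, 49.996 and 48.4 FPKM. Jak2 differed by -0.25 on the log2 scale (SE 0.043, limma adjusted p = 0.005). The 3 untreated libraries were above the 3 IgE libraries in each. Falls among JAK-STAT genes numbered 4 to 14 (past 1.5 times without untreated replicates 1, 2 and 3 and IgE replicates 1 and 2) with 1 library left out.

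Death genes of the BCL2 family had 3 rises and 3 falls in 12. Bcl2, which protects cells, fell from 32.7, 34.1 and 32.5 to 25.9, 25.2 and 27.6 FPKM. Bcl2 differed by -0.33 on the log2 scale (SE 0.049, limma adjusted p = 0.00299). So did Bmf (7.63, 7.29 and 7.67 against 5.16, 4.99 and 4.79 FPKM, log2 difference -0.51, SE 0.052, limma adjusted p = 0.000753) and Bcl2l11, known as Bim (5.28, 4.65 and 4.82 against 3.17, 3.31 and 3.67 FPKM, log2 difference -0.43, SE 0.068, limma adjusted p = 0.00365), both of which promote death after growth factor loss. Bax, a pore-forming killer, rose from 83.4, 80.9 and 83.2 to 96.7, 109.8 and 97.6 FPKM (0.29, limma adjusted p = 0.00834). The other rises, Bak1 (0.24) and Pmaip1 (0.24), were named after their values were seen. The Bak1 call was lost without untreated replicate 2 (0.23) or 3 (0.22) or IgE replicate 2 (0.24), and that of Pmaip1 without untreated replicate 1 (0.22) or 3 (0.23) or IgE replicate 1 (0.20) or 2 (0.25). Mcl1 and Bcl2l1, protectors, were not called (-0.13 and 0.08, limma adjusted p = 0.0608 and 0.484); without IgE replicate 3 Mcl1 was called lower (-0.12). Of 22 targets of p53 9 rose and 2 fell, with Plk3 higher by 0.40 and Sesn1 at 28.7, 29.1 and 29.6 against 24.3, 24.2 and 22.6 FPKM (-0.29, limma adjusted p = 0.00379), while Trp53 itself was at 19.9, 19.3 and 21.04 and 20.4, 20.03 and 28.4 FPKM (0.16, limma adjusted p = 0.336), IgE replicate 3 the highest. Rises among p53 targets numbered 4 to 11 (past 1.5 times without untreated replicates 1 and 3 and IgE replicates 1 and 2) with 1 library left out. Falls among BCL2 family genes numbered 3 to 5 (past 1.5 times without IgE replicate 3) with 1 library left out. Falls among p53 targets numbered 1 to 3 (past 1.5 times without untreated replicate 3) with 1 library left out. Rises among BCL2 family genes numbered 1 to 3 (past 1.5 times without untreated replicate 3 and IgE replicate 2) with 1 library left out.

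Transcription factors of mast cells had 3 rises and 9 falls in 26. Hes1, a Notch target, rose from 13.6, 15.9 and 14.8 to 20.97, 20.02 and 20.04 FPKM (log2 difference 0.44, SE 0.059, limma adjusted p = 0.00193) and Lmo2, a blood cell adaptor, by 0.25. Ikzf2, a zinc finger factor, fell from 41.9, 41.1 and 41.5 to 35.9, 35.5 and 33.4 FPKM (-0.24, limma adjusted p = 0.00629). Mitf, which drives mast cell genes, was called lower (71.3, 72.6 and 75.1 against 64.5, 67.04 and 63.4 FPKM, -0.16, limma adjusted p = 0.028), and the call was lost without any 1 of the untreated replicates or IgE replicate 1 (-0.14 to -0.18). Clock genes had 0 rises and 5 falls in 14, with Rora, a nuclear receptor of the clock, at 1.91, 1.56 and 1.896 against 0.889, 0.813 and 0.947 FPKM (log2 difference -0.56). Rora reached 1 FPKM in the untreated libraries alone, so it had to differ, and it is counted in these falls without being support for them. Arntl, the core activator, was at 7.64, 7.81 and 7.59 against 6.39, 6.34 and 6.28 FPKM (-0.24, limma adjusted p = 0.00797). Falls among mast cell transcription factors numbered 2 to 13 (past 1.5 times without untreated replicates 1, 2 and 3 and IgE replicates 1 and 2) with 1 library left out. Falls among clock genes numbered 3 to 7 (past 1.5 times without untreated replicates 1, 2 and 3 and IgE replicates 1 and 2) with 1 library left out.

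Surface receptors for chemical signals fell more often than they rose. Of 26 G protein-coupled and purine receptors 1 rose and 12 fell, against 11.5% of all tested genes. C5ar1 and C3ar1, the receptors of complement fragments, fell from 4.502, 4.95 and 4.76 to 2.79, 2.86 and 3.38 FPKM (log2 difference -0.52, SE 0.072, limma adjusted p = 0.00219) and from 22.5, 22.6 and 20.7 to 17.6, 17.7 and 18.6 FPKM. C3ar1 differed by -0.27 on the log2 scale (SE 0.051, limma adjusted p = 0.00709). Hrh4, a histamine receptor, fell from 39.7, 39.95 and 41.6 to 33.4, 33.8 and 30.9 FPKM. Hrh4 differed by -0.30 on the log2 scale (SE 0.049, limma adjusted p = 0.00422). Ptger3, a receptor for prostaglandin E2, fell from 94.6, 103 and 96.2 to 79.6, 83.6 and 80.6 FPKM. Ptger3 differed by -0.27 on the log2 scale (SE 0.049, limma adjusted p = 0.00669). In each of these the IgE libraries all lay below the untreated ones. Falls among G protein-coupled receptors numbered 6 to 13 (past 1.5 times without untreated replicate 3) with 1 library left out. Rises among G protein-coupled receptors numbered 0 to 2 (past 1.5 times without untreated replicates 1, 2 and 3 and IgE replicates 1, 2 and 3) with 1 library left out.

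Integrins and other adhesion genes had 2 rises and 7 falls in 18 (5 to 8 falls with 1 library left out). Itgb7, a beta chain of mucosal homing, fell from 154, 145 and 160.5 to 119, 121 and 121 FPKM. Itgb7 differed by -0.34 on the log2 scale (SE 0.050, limma adjusted p = 0.00274). Cd82, a tetraspanin, fell from 30.4, 28.8 and 28.97 to 21.8, 20.7 and 21.7 FPKM (log2 difference -0.44, SE 0.045, limma adjusted p = 0.000772), and Itga6, a laminin receptor chain, rose by 0.22. Itga2b and Itgb3, which form a receptor of platelets also present on cultured mast cells, fell by 0.25 and 0.28 on the log2 scale, and were the 2 calls in 7 tested platelet markers, whose summed level was 625 to 639.7 FPKM untreated and 528 to 569.9 FPKM with IgE. Interferon-stimulated genes had 1 rise and 6 falls in 18, with Gbp2, a GTPase of host defence, at 21.6, 19.8 and 21.9 against 15.9, 16.6 and 13.9 FPKM (-0.43, limma adjusted p = 0.00436). Class I and II antigen presentation had 0 rises and 1 fall in 16, a share of calls below the 25% among all tested genes. That fall was Cd74, at 1.16, 1.27 and 1.41 against 0.897, 0.892 and 0.986 FPKM. Cd74 reached 1 FPKM in the untreated libraries alone, so it had to differ and is counted without being support. Autophagy genes fell in 5 of 22, against 11.5% of all tested genes, with Atg7 and Atg12, of the conjugation steps, lower by 0.20 and 0.22 on the log2 scale. Eicosanoid genes had 1 rise in 12, Ptges3, a share below the 13.5% called higher among all tested genes. Falls among interferon-stimulated genes numbered 1 to 7 (past 1.5 times without untreated replicates 1, 2 and 3) with 1 library left out. Falls among autophagy genes numbered 3 to 6 (past 1.5 times without untreated replicates 1, 2 and 3 and IgE replicates 1 and 2) with 1 library left out. Falls among platelet markers numbered 2 to 5 (past 1.5 times without IgE replicate 3) with 1 library left out. Falls among antigen presentation genes numbered 0 to 3 (past 1.5 times without untreated replicates 1, 2 and 3 and IgE replicates 1, 2 and 3) with 1 library left out. Rises among eicosanoid genes numbered 1 to 4 (past 1.5 times without IgE replicate 3) with 1 library left out. Rises among interferon-stimulated genes numbered 0 to 1 (past 1.5 times without untreated replicate 1 and IgE replicate 2) with 1 library left out. Rises among adhesion genes numbered 1 to 3 (past 1.5 times without untreated replicates 1, 2 and 3 and IgE replicate 1) with 1 library left out. Rises among antigen presentation genes numbered 0 to 1 (past 1.5 times without IgE replicate 3) with 1 library left out.

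Macrophage markers moved in both directions, with 2 rises and 3 falls in 7 tested of 17 and summed levels of 139 to 159.9 FPKM untreated and 125 to 136 FPKM with IgE. Cd68, a lysosomal glycoprotein that mast cells also make, rose from 8.92, 8.304 and 8.63 to 16.2, 16.2 and 15.8 FPKM (log2 difference 0.83, SE 0.047, limma adjusted p = 0.000113), while Lyz2, lysozyme, fell from 68.9, 70.8 and 76.6 to 56.3, 54.9 and 50.2 FPKM. Lyz2 differed by -0.42 on the log2 scale (SE 0.060, limma adjusted p = 0.00248). Emr1, known as F4/80, fell from 12.6, 12.3 and 11.7 to 9.52, 9.52 and 9.04 FPKM. Emr1 differed by -0.35 on the log2 scale (SE 0.050, limma adjusted p = 0.00245). Basophil markers, several of which mast cells share, had 1 rise and 3 falls in 7. The parts of these cells in the falls of inflammatory and receptor genes were not tested. Falls among basophil markers numbered 1 to 3 (past 1.5 times without untreated replicates 2 and 3) with 1 library left out. Rises among basophil markers numbered 1 to 2 (past 1.5 times without IgE replicate 3) with 1 library left out. Rises among macrophage markers numbered 1 to 2 (past 1.5 times without untreated replicates 2 and 3 and IgE replicates 1 and 2) with 1 library left out.

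Several of the leading falls belonged to none of the lists. Serpina3g, a serpin of haematopoietic cells, fell from 87.7, 100.2 and 90.6 to 51.2, 48.3 and 49.99 FPKM (log2 difference -0.88, SE 0.058, limma adjusted p = 0.000192), and its close relative Serpina3f by 0.71 on the log2 scale; these paralogs can share reads. Klra2, a lectin-like receptor of the Ly49 family, went from 53.8, 55.5 and 53.9 to 33.9, 31.7 and 28.9 FPKM. Klra2 differed by -0.77 on the log2 scale (SE 0.060, limma adjusted p = 0.000324). Spink2, a protease inhibitor, fell from 45.1, 43.3 and 41.7 to 26.4, 26.6 and 24.2 FPKM. Spink2 differed by -0.73 on the log2 scale (SE 0.053, limma adjusted p = 0.000298). Asb2, a subunit of ubiquitin ligases, fell from 17.6, 17.6 and 19.002 to 9.35, 10.8 and 11.1 FPKM. Asb2 differed by -0.74 on the log2 scale (SE 0.068, limma adjusted p = 0.000551). The leading falls were taken only from called genes whose groups do not overlap, so the separate groups of these genes are not a result. Rsph9, a ciliary protein, had 14.1, 14.6 and 14.5 FPKM untreated and 8.23, 7.94 and 7.75 FPKM with IgE (log2 difference -0.78, SE 0.047, limma adjusted p = 0.000116), Nxpe4 19.02, 13.97 and 18.96 and 10.2, 10.1 and 8.76 FPKM (log2 difference -0.76, SE 0.11, limma adjusted p = 0.00299), with untreated replicate 2 the lowest of its group, and Sult1a1, a sulfotransferase, 3.69, 2.75 and 3.36 and 1.67, 1.399 and 1.32 FPKM. Sult1a1 differed by -0.79 on the log2 scale (SE 0.10, limma adjusted p = 0.00133). Frat1, a positive regulator of Wnt signalling, and the noncoding E130102H24Rik fell by 0.72 and 0.70 on the log2 scale. Among the leading rises outside the lists described above, Tcf19, a factor of late G1, went from 21.4, 27.1 and 23.9 to 45.7, 45.6 and 40.8 FPKM. Tcf19 differed by 0.84 on the log2 scale (SE 0.084, limma adjusted p = 0.000731).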

How the data were processed

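RNA-seq levels of 6 libraries were used as FPKM in the table the authors deposited. Per the submitters' processing notes, reads were handled with TopHat2 2.0.12 and Bowtie 0.12.7 on mm9. Not given in the sources used here are the FPKM program, its annotation and its strand setting, so overlapping genes and near-identical paralogs cannot be separated. Genes at 1 FPKM or more in 3 or more of the 6 libraries were tested on log2(FPKM + 1) with limma 3.58.1 (R 4.3.3; intensity trend, no replicate block) and Benjamini-Hochberg adjustment over all 10630 genes, and called at an adjusted p under 0.05. The fit was run on data simulated with independent noise for each gene and library. Such data do not cover deviations that many genes of a library share. The members and the gene lists were chosen with earlier results of these data known. The text names the 15 leading rises and falls (short RNAs apart), up to 4 leading genes of each list and a fixed panel, and says where another gene is named. The leading rises and falls were taken only from called genes whose groups do not overlap. Alternatives covered pseudocount, filter, scaling, variance model, block, a minimum fold and each library left out. Many list members are counted but not named, and some are not reported here.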

Additional observations from a re-analysis of the deposited data

How the results depend on the processing

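The total of 2659 calls was within 1.5 times under every other pseudocount, filter, scaling and variance model tried (2207 with no filter to 2984 with all 9 libraries in the fit). It fell to 156 (111 higher, 45 lower) when limma tested for a change above 1.2-fold. Leaving out 1 library gave 1434 to 4093 calls, 833 to 2097 higher and 577 to 1996 lower; the cause was not tested. Libraries of the same replicate number deviated together little (correlations of same-numbered deviations 0.0887, 0.127 and -0.107; 1 of 3 untreated libraries correlated best with its own number). These correlations cannot show whether same-numbered libraries came from 1 culture or animal, which the labels do not give. The fit with the replicate block called 2097 genes (1185 higher, 912 lower). Of the 258 named genes tested, 240 were called, and 70 of these kept the call under every alternative. The other 170 lost it under some alternative, 169 under the minimum fold of 1.2 and 44 under one other than the minimum fold. None changed direction. Quantile normalization turned the sign of the list median for sterol regulators, ribosomal proteins, amine genes and eicosanoid genes. Depth limits genes near 1 FPKM.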
